A study of Mus musculus with 34 samples.

Results

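The 10 genes described here encode subunits of the Polycomb repressive complexes PRC1 and PRC2: Ezh1, Ezh2, Eed, Suz12, Jarid2, Rnf2, Ring1, Pcgf1, Pcgf6 and Kdm2b. They were chosen by symbol. All 10 were found among the 49686 symbols of the zygote and late 2-cell tables and among the 51734 symbols of the blastocyst table.

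Polycomb complexes keep genes silent by modifying histones. PRC2 methylates histone H3 at lysine 27 through a catalytic subunit, Ezh1 or Ezh2, that works only together with Eed and Suz12, and Jarid2 is an accessory subunit that helps it bind chromatin. PRC1 places ubiquitin on histone H2A through Rnf2 (RING1B) or Ring1 (RING1A), each paired with 1 of the Pcgf proteins, and Kdm2b brings the complex built on Pcgf1 to unmethylated CG-rich DNA. The mouse egg stocks RNA and protein for both complexes, and maternal PRC2 lays down the methylation that imprints a set of genes in the early embryo.

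The kinase CHK1 halts the cell cycle after DNA damage. Zygotes received mRNA of wild-type (WT) or R442Q mutant CHK1 by injection, so every embryo carried injected CHK1 mRNA and no uninjected group was analysed here. Each library was 1 embryo, with 5 WT against 6 R442Q libraries for zygotes, 4 against 5 for late 2-cell embryos and 7 against 7 for blastocysts. Zygotes and late 2-cell embryos had no other treatment, while both blastocyst groups were cultured with a CHK1 inhibitor at 30 nM, so the inhibitor cannot be told apart from the blastocyst stage. Strain and age of the animals are not given in the sources used here. Nothing in the labels says whether embryos of a group came from separate litters or injection sessions, so p-values measure only the spread between embryos.

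Total counts per embryo were 7183632 to 11296522 in zygotes and 5727956 to 8916343 in late 2-cell embryos, and no 2 libraries of a stage were identical. Only FPKM (fragments scaled by gene length and library size) was used for blastocysts, so their depth in counts is unknown. Chek1, the injected gene, was at 4123 to 9079 FPKM in WT and 5290.4 to 6868 in R442Q zygotes, at 344 to 653 and 253 to 905 at late 2-cell, and at 7.05 to 38.2 and 13.3 to 23.6 in blastocysts. Its level therefore overlapped between the genotypes at each stage, and it does not separate the alleles. Stage markers were checked against the labels: the 5 oocyte markers (Zp3, Gdf9, Bmp15, Mos and Oosp1) summed to at least 3142 FPKM in zygotes and at most 4.28 in blastocysts, while the 5 trophectoderm markers (Cdx2, Krt8, Krt18, Gata3 and Eomes) summed to at most 43.6 before the blastocyst and at least 1170 there. The 5 late 2-cell markers (Zscan4c, Zscan4d, Zfp352, Tcstv1 and Tcstv3) summed to 103 to 1309 FPKM in WT late 2-cell embryos, overlapping the 74.6 to 207 of zygotes, and to 672 to 2408 in R442Q late 2-cell embryos. Markers of cumulus cells summed to at most 2.73 FPKM in zygotes and 7.61 in WT late 2-cell embryos, but reached 23.7 in R442Q late 2-cell embryos.

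The promoters of these genes are rich in CG dinucleotides, the feature that Kdm2b itself binds through its CXXC zinc finger. RefSeq promoter windows (GRCm38.p6, 250 bases before to 50 after an annotated start, 300 bases in all) matched 9 of the 10 genes and gave 13 windows. These held 17 to 49 CG, with a median of 28, against a median of 7 over all 32851 windows. Windows with at least 17 CG made up 31.4% of all windows. Windows of Kdm2b (2 of its 4), Suz12 and Eed are printed because the results turn on these genes, in lower case with each CG in capitals (each CG reads the same on the other strand). All are from GRCm38.p6 and run 5′ to 3′ along the gene. Kdm2b (chr5:122870665-122989823, minus strand, 20 annotated transcripts) has an upstream start at the first exon of its longest coding transcript and an internal start, 88749 bases further along, in an intron that follows exon 12 of the 23 exons of that transcript. Of the 4 Kdm2b windows 2 overlap at that internal start and 2 lie 592 bases apart upstream, and 1 of each pair is printed. Of its transcripts 11 begin inside the gene, most of them at neither window.
Kdm2b, upstream start, chr5:122989050-122989349, minus strand, 28 CG: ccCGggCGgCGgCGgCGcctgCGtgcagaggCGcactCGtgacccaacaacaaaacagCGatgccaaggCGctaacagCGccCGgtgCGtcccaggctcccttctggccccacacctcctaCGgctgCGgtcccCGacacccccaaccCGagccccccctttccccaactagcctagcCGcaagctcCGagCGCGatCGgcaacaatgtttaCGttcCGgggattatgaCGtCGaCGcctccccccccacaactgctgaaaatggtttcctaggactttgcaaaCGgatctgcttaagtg
Kdm2b, internal start, chr5:122900301-122900600, minus strand, 49 CG: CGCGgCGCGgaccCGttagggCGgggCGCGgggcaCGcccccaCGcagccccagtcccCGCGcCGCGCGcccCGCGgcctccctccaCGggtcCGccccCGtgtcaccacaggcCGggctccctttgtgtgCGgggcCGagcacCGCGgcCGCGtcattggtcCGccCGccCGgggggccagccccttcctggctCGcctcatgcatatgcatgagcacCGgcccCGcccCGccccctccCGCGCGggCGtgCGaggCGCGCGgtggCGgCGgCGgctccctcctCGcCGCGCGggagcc
Suz12, chr11:79992856-79993155, plus strand, 41 CG: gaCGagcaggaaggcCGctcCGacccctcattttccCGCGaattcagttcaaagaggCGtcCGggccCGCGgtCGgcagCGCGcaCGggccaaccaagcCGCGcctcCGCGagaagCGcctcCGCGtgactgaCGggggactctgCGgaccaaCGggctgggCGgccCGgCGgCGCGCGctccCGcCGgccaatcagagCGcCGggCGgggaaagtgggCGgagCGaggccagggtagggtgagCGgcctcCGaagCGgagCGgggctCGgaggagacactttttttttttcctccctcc
Eed, chr7:89980927-89981226, minus strand, 17 CG: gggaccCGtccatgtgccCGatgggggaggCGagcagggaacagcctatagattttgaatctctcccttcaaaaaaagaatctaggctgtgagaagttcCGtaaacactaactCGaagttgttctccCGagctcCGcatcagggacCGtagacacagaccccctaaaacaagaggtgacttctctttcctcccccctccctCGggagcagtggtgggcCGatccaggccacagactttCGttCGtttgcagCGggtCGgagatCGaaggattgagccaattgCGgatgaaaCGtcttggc
The printed internal Kdm2b window had more CG than 99.0% of all windows and the Suz12 window more than 96.5%. The printed upstream Kdm2b window had more than 85.8% and the Eed window more than 68.6%.

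Levels between genes were compared per length, in FPKM. In WT zygotes Pcgf1 was the highest of the 10, at 917 ± 163 FPKM (SD, n = 5), above 99.2% of the expressed genes. Ezh2 followed at 249.9 ± 31.0, then Pcgf6 at 140.2 ± 26.1, Rnf2 at 136 ± 18.9, Eed at 124 ± 30.7 and Kdm2b at 97.5 ± 16.4. Suz12 (35.8 ± 9.35), Jarid2 (29.1 ± 7.92) and Ezh1 (24.2 ± 3.35) were lower, and Ring1 was detected in 1 of 5 WT zygotes. In WT blastocysts (n = 7) the order was different: Eed was highest at 109 ± 35.9 FPKM and Jarid2 second at 58.7 ± 8.07, followed by Rnf2 at 41.2 ± 12.2, Kdm2b at 34.9 ± 16.7 and Ezh2 at 28.8 ± 15.6. Suz12 was at 13.5 ± 2.99, Pcgf1 at 10.9 ± 4.43 and Ezh1 at 8.30 ± 2.56, and Pcgf6 ranged from 0 to 9.48. The tables of the 3 stages were normalised separately by the authors, so these levels stand side by side with no test, and table and stage cannot be told apart. FPKM summed to 669904 to 687863 per embryo in zygotes and 979070 to 1164489 in blastocysts, and TPM, which is FPKM rescaled to the same sum in every embryo, is given beside some levels of Ezh2, Eed and Jarid2.

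Ordered by mean FPKM over the 6 groups, most neighbours differed by less than their spread. Shares of all genes without overlap between stages were not computed in FPKM. For Ezh2 the zygote groups stood above both late 2-cell groups, and these above both blastocyst groups, with overlap only between the lowest R442Q late 2-cell embryo (48.3 FPKM) and the highest WT blastocyst (49.8), which did not overlap in TPM (52.3 and 50.8). For Pcgf1 and Pcgf6 all blastocysts lay below all late 2-cell embryos (Pcgf1 at most 29.1 against at least 102.2 FPKM). Suz12 was highest in R442Q late 2-cell embryos (63.3 ± 12.6, n = 5) and WT late 2-cell embryos (45.0 ± 9.56, n = 4) and lowest in blastocysts. Eed had its lowest level in WT late 2-cell embryos (28.2 ± 13.2), while in FPKM, though not in TPM, both zygote and both blastocyst groups differed by less than their SD from the next in order.

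**Figure D1:**
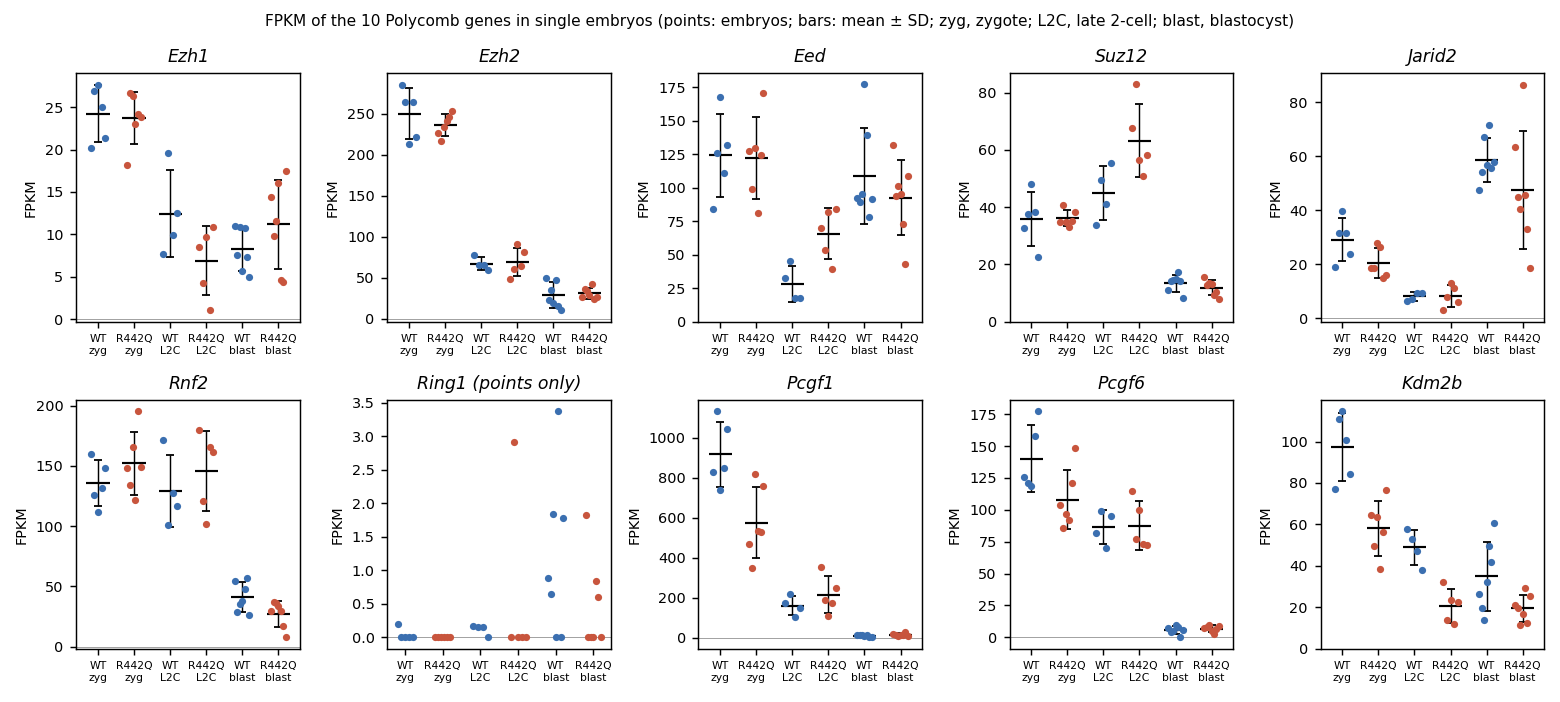
FPKM (y axis) of each of the 10 genes in every embryo, by group (x axis), with the mean and SD as black bars except for Ring1. WT embryos are blue and R442Q embryos red. Pcgf1 has a mean of 917 FPKM in WT zygotes and 10.9 in WT blastocysts, while Jarid2 has its highest levels in blastocysts.

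The change from zygote to late 2-cell was tested with edgeR on counts of both stages in 1 model, and the values below are counts scaled to library size (CPM) as in that model. No fit of this model removed trends on gene length and GC content. The change is relative to the whole library, so less RNA of a gene and more RNA of others cannot be told apart, nor can fewer cells and less RNA per cell. In WT embryos 8 of the 9 tested Polycomb genes fell and none rose (adjusted p under 0.05), in a comparison where 61.2% of all 16199 tested genes were called, 25.0% as lower and 36.2% as higher. The zygote and late 2-cell embryos did not overlap for the same 8 genes, as for 27.1% of all genes in that direction and 57.0% in either. The median log2 fold change of the 9 was -1.34, against 0.34 over all tested genes. Leaving out 1 embryo gave medians of -1.60 to -1.24 for the 9 and 0.16 to 0.40 over all genes. The 0.16 came without R442Q zygote replicate 2, an embryo outside this contrast. In R442Q embryos 8 fell and 1, Suz12, rose, where 65.1% of all genes were called (29.8% lower, 35.3% higher), and the median of the 9 was -1.63 against 0.22 over all genes. Groups did not overlap for 5 of the 8 (Ezh1, Ezh2, Eed, Jarid2 and Kdm2b), against 23.4% of all genes in that direction and 45.5% in either. Scaling by relative log expression (RLE) moved the median of all genes in R442Q embryos to 0.34 and left 7 of the 9 called, Suz12 higher and 6 lower. The 5 oocyte markers had a median sum of 4769 FPKM in WT zygotes and 1472 in WT late 2-cell embryos, but of 4052 and 4035 in R442Q embryos, and their part in these changes was not tested.

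Ezh2 (chr6:47530139-47595341), the catalytic subunit of dividing cells, was at 441.8, 365, 321, 412 and 390.3 CPM in WT zygotes and at 94.8, 85.6, 88.2 and 93.8 in WT late 2-cell embryos. The R442Q zygotes had a lowest, median and highest value of 336, 412 and 444, and the R442Q late 2-cell embryos were at 87.3, 88.3, 99.2, 88.9 and 109. Every late 2-cell embryo was thus below every zygote, and the genotypes lay on top of each other at both stages. The log2 fold change over the stages was -1.98 ± 0.17 (SE) in WT and -2.14 ± 0.15 in R442Q embryos (edgeR adjusted p = 1.0e-09 and 3.8e-11), a 3.95-fold and a 4.42-fold fall. The SD of Ezh2 within the 4 groups was 4.84% to 11.9% of the mean.

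Ezh1 (chr11:101191115-101226463), the other methyltransferase, which is typical of resting cells, was at 82.6, 105, 107, 106 and 89.8 CPM in WT zygotes and at 24.7, 69.9, 32.3 and 45.4 at late 2-cell. In R442Q zygotes it ranged from 85.4 to 116 with a median of 105, and R442Q late 2-cell embryos were at 36.6, 17.1, 28.02, 4.54 and 30.2. The WT and R442Q late 2-cell embryos overlapped, and R442Q replicate 4 was lowest. Ezh1 fell by 1.09 ± 0.37 on the log2 scale in WT (adjusted p = 0.0151) and by 2.21 ± 0.35 in R442Q embryos (adjusted p = 9.0e-06, edgeR). The ratio of Ezh2 to Ezh1 in FPKM was 7.72 to 14.2 in WT zygotes, 3.39 to 10.1 in WT late 2-cell embryos and 2.10 to 4.53 in WT blastocysts. In R442Q embryos it was 8.15 to 12.5, 5.65 to 61.3 and 1.53 to 9.09, the value of 61.3 being that of replicate 4 at late 2-cell.

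Eed (chr7:89954654-89980983), the subunit that reads methylated lysine 27 and stimulates the enzyme, was at 123, 140.0, 166, 150.0 and 174 CPM in WT zygotes and at 32.2, 34.0, 19.6 and 15.1 in WT late 2-cell embryos. The range over R442Q zygotes was 118 to 175 with a median of 147, and the R442Q late 2-cell embryos were at 63.8, 41.8, 53.8, 45.8 and 57.1. The zygotes of the genotypes covered the same range, while at late 2-cell all 5 R442Q embryos lay above all 4 WT embryos. Eed fell by 2.47 ± 0.25 on the log2 scale in WT (5.56-fold, adjusted p = 1.1e-08) and by 1.503 ± 0.21 in R442Q embryos (2.84-fold, adjusted p = 1.7e-06, edgeR). In blastocysts its FPKM was 77.9 to 177 (median 92.2) in WT and 43.2 to 132 (median 95.1) in R442Q embryos, and how this stands to the zygote depends on the unit. WT zygotes and blastocysts were at means of 124 and 109 in FPKM, and at 183 ± 46.5 (n = 5) and 104 ± 29.5 (n = 7) in TPM.

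Suz12 (chr11:79993106-80034123), the scaffold that holds PRC2 together, did not follow the others. It was at 142, 152, 206, 168 and 99.9 CPM in WT zygotes and at 119, 188, 147 and 209 in WT late 2-cell embryos, which overlapped. R442Q zygotes ranged from 155 to 186 with a median of 161, and R442Q late 2-cell embryos were at 311, 323, 182, 212 and 241, of which 1 lay below the highest zygote. The log2 fold change was 0.21 ± 0.22 in WT (adjusted p = 0.424) and 0.57 ± 0.20 in R442Q embryos (1.49-fold higher, adjusted p = 0.0162, edgeR), and the 2 changes were not shown to differ (adjusted p = 0.498 for the interaction). The rise in R442Q embryos was called in 19 of 20 fits that left out 1 embryo, but not without R442Q late 2-cell replicate 1. The ratio of Eed to Suz12 in FPKM was 2.57 to 5.84 in WT zygotes, 0.319 to 0.958 in WT late 2-cell embryos and 5.48 to 11.98 in WT blastocysts.

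Jarid2 (chr13:44729474-44921643) was at 74.1, 92.3, 77.2, 96.6 and 103 CPM in WT zygotes and at 28.3, 36.5, 40.3 and 25.8 in WT late 2-cell embryos. In R442Q zygotes it ranged from 63.4 to 99.0 with a median of 75.1, and R442Q late 2-cell embryos were at 16.7, 27.05, 28.3, 18.7 and 19.97. Every late 2-cell embryo was below every zygote, and the genotypes overlapped at both stages. It fell by 1.34 ± 0.24 on the log2 scale in WT (adjusted p = 5.8e-05) and by 1.85 ± 0.22 in R442Q embryos (adjusted p = 1.7e-07, edgeR). Its FPKM in blastocysts, 47.6 to 71.5 in WT and 18.7 to 86.7 in R442Q embryos, had the highest mean of the 3 stages in the WT groups. WT blastocysts and WT zygotes (19.1 to 39.6) did not overlap in FPKM but did in TPM, at 48.6 to 71.8 and 28.1 to 59.1.

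Of the ubiquitin ligases of PRC1, Rnf2 (chr1:151458004-151500955) was present throughout and Ring1 (chr17:34020792-34024680) at or near the floor of 3 counts. Rnf2 was at 295, 238, 276, 272 and 281 CPM in WT zygotes and at 199, 165, 179.6 and 172 in WT late 2-cell embryos, which did not overlap. The range over R442Q zygotes was 253 to 338 with a median of 292, and R442Q late 2-cell embryos were at 327, 188, 115, 268 and 224, a wide spread that overlapped the zygotes. The fall of Rnf2 was small, by 0.50 ± 0.21 in WT (adjusted p = 0.0403) and by 0.45 ± 0.19 in R442Q embryos (adjusted p = 0.0358, edgeR), and was called in 15 and 10 of 20 fits that left out 1 embryo. RLE scaling gave a log2 fold change of -0.32 (adjusted p = 0.145) in R442Q embryos. Per length, Rnf2 was at 136 ± 18.9 FPKM in WT zygotes and 129 ± 30.1 in WT late 2-cell embryos, a difference within the spread.

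Ring1 had 3 counts in 1 of 11 zygotes and 0 in the other 10. At late 2-cell it had 2 counts in 3 WT embryos and 4 in 1 R442Q embryo, and 0 in the other 5. A count of 3, taken as the floor, was worth 0.266 to 0.524 CPM in these libraries, and the embryo with 4 counts was the 1 of 20 above it. In blastocysts Ring1 was listed at 0.88, 0.64, 1.84, 0, 3.37, 0 and 1.78 FPKM in WT embryos and at 1.83, 0, 0, 0, 0.84, 0.60 and 0 in R442Q embryos. The groups overlapped, and Ring1 passed the filter on low values in no comparison.

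Pcgf1 (chr6:83077869-83080855), the partner of Kdm2b in the variant complex named PRC1.1, had the largest fall of the 9 in WT embryos. It was at 569.5, 726, 504, 591 and 728 CPM in WT zygotes and at 92.6, 139.9, 56.6 and 90.2 in WT late 2-cell embryos. R442Q zygotes ranged from 249 to 589.6 with a median of 395, and R442Q late 2-cell embryos were at 259, 115, 54.1, 123 and 165. WT groups were far apart, whereas the highest R442Q late 2-cell embryo lay just above the lowest R442Q zygote. Pcgf1 fell by 2.62 ± 0.35 on the log2 scale in WT (6.14-fold, adjusted p = 8.0e-07) and by 1.63 ± 0.30 in R442Q embryos (3.09-fold, adjusted p = 4.9e-05, edgeR). Of its 50-base stretches, pooled over all transcripts, 15.3% also occur in Gm8930. Within single coding transcripts the share was 19.8% to 33.9%, so reads of the 2 genes could be split between them.

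Pcgf6 (chr19:47033617-47050906), a subunit of the germline-gene repressing complex PRC1.6, was at 251, 223, 232, 318 and 359 CPM in WT zygotes and at 135, 187, 124 and 176 in WT late 2-cell embryos. In R442Q zygotes it ranged from 179.5 to 306 with a median of 217, and R442Q late 2-cell embryos were at 243, 145, 162, 150.4 and 142. It fell by 0.73 ± 0.22 on the log2 scale in WT (adjusted p = 0.00643) and by 0.49 ± 0.20 in R442Q embryos (adjusted p = 0.0322, edgeR). The fall in R442Q embryos was called in 14 of 20 fits that left out 1 embryo. It was not called with RLE scaling (-0.36, adjusted p = 0.111). Its blastocyst FPKM of 2.36 to 9.87 in R442Q embryos lay below that of every earlier embryo (70.3 or more).

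Kdm2b, which carries a demethylase domain and the CXXC zinc finger, was at 357, 309, 391, 364 and 366 CPM in WT zygotes and at 83.2, 107, 65.9 and 54.8 in WT late 2-cell embryos. The range over R442Q zygotes was 183 to 318 with a median of 272, and R442Q late 2-cell embryos were at 43.9, 11.1, 29.0, 15.4 and 32.2. The 4 groups thus stepped down from WT zygotes to R442Q late 2-cell embryos, overlapping only between the 2 zygote groups, where 1 R442Q embryo (318) was above 1 WT embryo (309). Kdm2b fell by 2.09 ± 0.30 on the log2 scale in WT (4.27-fold, adjusted p = 3.2e-06) and by 3.34 ± 0.29 in R442Q embryos (10.1-fold, adjusted p = 9.0e-10, edgeR).

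**Figure D2:**
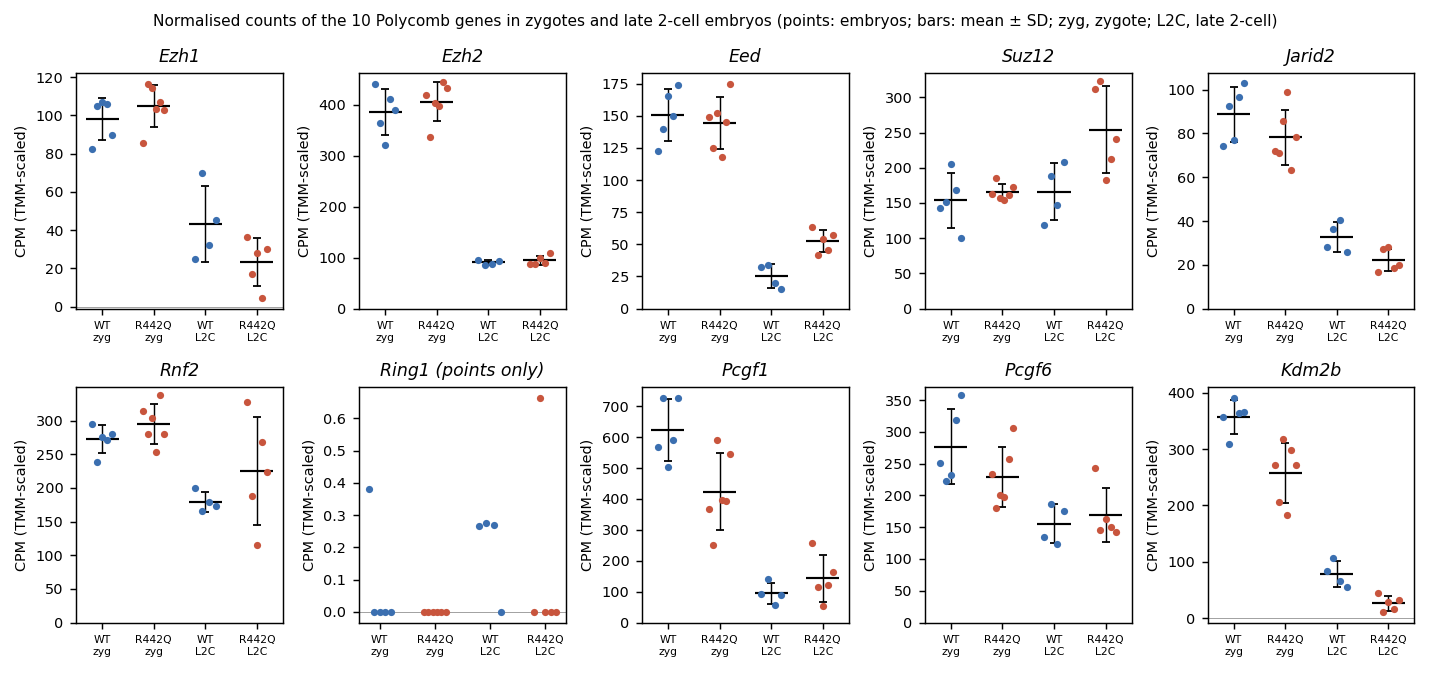
TMM-scaled CPM (y axis) of each of the 10 genes in zygotes and late 2-cell embryos by group (x axis), with the mean and SD as black bars except for Ring1. WT embryos are blue and R442Q embryos red. Late 2-cell values of 8 genes, all but Suz12 and Ring1, lie below the zygotes without overlap in WT embryos, while Suz12 stays in the zygote range of 99.9 to 206 CPM or rises above it.

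R442Q and WT embryos were then compared within each stage. In zygotes 2 of the 9 tested Polycomb genes, Kdm2b and Pcgf1, were lower in R442Q embryos and none was higher, where 13.2% of all 12420 tested genes were called (6.92% lower, 6.30% higher). Kdm2b was 1.37-fold lower (log2 fold change -0.45 ± 0.13, adjusted p = 0.0332) and Pcgf1 1.46-fold lower (-0.54 ± 0.17, adjusted p = 0.0471, edgeR). Groups overlapped in CPM for all 9 genes, against 8.65% of all genes whose groups did not (3.70% higher, 4.95% lower). In FPKM, Kdm2b was at 77.1, 111, 115, 101 and 84.3 in WT zygotes and at most 76.7 in R442Q zygotes, just below the lowest WT value. The share of all genes whose zygote groups did not overlap in FPKM was not computed. Both calls were near the threshold: Kdm2b was called in 4 and Pcgf1 in 3 of 11 fits that left out 1 embryo, with adjusted p up to 0.0711 and 0.112. Neither was called when the stages were fitted together (adjusted p = 0.569 and 0.495).

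The other 7 were not called in zygotes, with log2 fold changes between -0.25 for Pcgf6 (adjusted p = 0.310) and 0.14 for Rnf2 (adjusted p = 0.433). Ezh2 differed by 0.09 ± 0.10, Eed by -0.04 ± 0.12 and Suz12 by 0.13 ± 0.15. Each of these 3 PRC2 subunits thus differed by less than its SE. The 5 oocyte markers summed to 4442 to 6097 FPKM in WT and 3142 to 4510 in R442Q zygotes, where their median was lower, and their part in the Kdm2b and Pcgf1 differences was not tested.

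At late 2-cell 1 of the 9 genes, Kdm2b, was lower in R442Q embryos, where 4.18% of all 13883 tested genes were called (2.95% lower, 1.22% higher). The fold change was 3.03 (log2 -1.60 ± 0.41, adjusted p = 0.0436, edgeR). Eed was 2.03-fold higher (1.02 ± 0.35) but did not pass the threshold (adjusted p = 0.112), although DESeq2 (adjusted p = 0.0451) called it. Kdm2b and Eed were the 2 genes whose groups did not overlap in CPM, against 11.8% of all genes (4.67% higher, 7.14% lower). In FPKM the Eed groups overlapped, with WT embryos at 17.7 to 45.1 and R442Q embryos at 39.4 to 84.2. FPKM summed to 712234 to 742246 per embryo in WT and 814376 to 976830 in R442Q late 2-cell embryos, without overlap, and its part in FPKM differences at this stage was not tested.

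The Kdm2b call at late 2-cell held in 2 of 9 fits that left out 1 embryo (those without R442Q replicates 1 and 3, adjusted p = 0.0337 and 0.0413). It was lost in the other 7, with a log2 fold change from -1.43 to -1.76 and an adjusted p of up to 0.138, the highest being without WT replicate 2. With smooth trends of every library on length and GC removed it was -1.25 (adjusted p = 0.138), while DESeq2 gave -1.62 (adjusted p = 0.00372). The call was also lost with limma on log2(FPKM + 1) (-1.27, adjusted p = 0.0563) and with a replicate block in edgeR (-1.83, adjusted p = 0.0941). Oocyte markers summed to 1190.1 to 3078 FPKM in WT and 1599.8 to 6849 in R442Q late 2-cell embryos. The medians of the oocyte, late 2-cell and cumulus marker sums were all higher in R442Q embryos, with ranges that overlapped, and their part in the Kdm2b and Eed differences was not tested.

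The remaining 7 genes were not called at late 2-cell. Ezh1 (-0.91 ± 0.52, adjusted p = 0.342) and Jarid2 (-0.60 ± 0.36, adjusted p = 0.372) had the next lowest values. Suz12 (0.58 ± 0.30, adjusted p = 0.286), Pcgf1 (0.55 ± 0.40, adjusted p = 0.474) and Rnf2 (0.27 ± 0.31, adjusted p = 0.667) had the next highest, all by edgeR. Ezh2 (0.02 ± 0.26) and Pcgf6 (0.08 ± 0.28) were close to 0. With length and GC trends removed, Suz12 (-0.15) and Rnf2 (-0.10) turned negative and Ezh2 went to -0.38, none of them called.

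In blastocysts none of the 9 tested genes was called by limma on log2(FPKM + 1), where 0.00885% of all 11297 tested genes, that is 1, was called. At an unadjusted p under 0.05 there was 1 of the 9, Kdm2b, among 836 genes in all. Kdm2b had a lowest, median and highest FPKM of 13.9, 32.4 and 60.7 in WT and 11.5, 19.7 and 29.2 in R442Q blastocysts. The groups overlapped, the log2(FPKM + 1) difference being -0.73 ± 0.33 (limma adjusted p = 0.648). Rnf2 was at 26.5, 38.2 and 57.1 in WT and 7.73, 29.9 and 37.2 in R442Q blastocysts, a difference of -0.67 ± 0.33 (limma adjusted p = 0.689). The 7.73 was of R442Q replicate 7, which had 8189 genes at 1 FPKM or more, against 9852 to 12191 in the other blastocysts. This embryo also had the lowest Jarid2 of its group (18.7). Without it the median difference of all genes went from -0.0969 to 0.0013. Pcgf1 had the largest positive difference, 0.59 ± 0.35 (adjusted p = 0.772), with 3.23, 13.7 and 14.8 in WT and 10.2, 14.7 and 29.1 in R442Q embryos. The 3.23 was of WT replicate 6, which had 9852 genes at 1 FPKM or more and also gave the Pcgf6 value of 0. The part of the number of genes detected in these differences was not tested. Groups overlapped for all 9 genes, as for all but 0.416% of the tested genes (0.354% higher, 0.0620% lower). The intervals are wide at this spread, and the p-values do not show that the genotypes were alike. Trophectoderm markers summed to 3194 to 24234 FPKM in WT and 1170 to 12824 in R442Q blastocysts, and the 5 inner cell mass markers to 126 to 566 and 93.1 to 324, and their part in these differences was not tested.

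**Figure D3:**
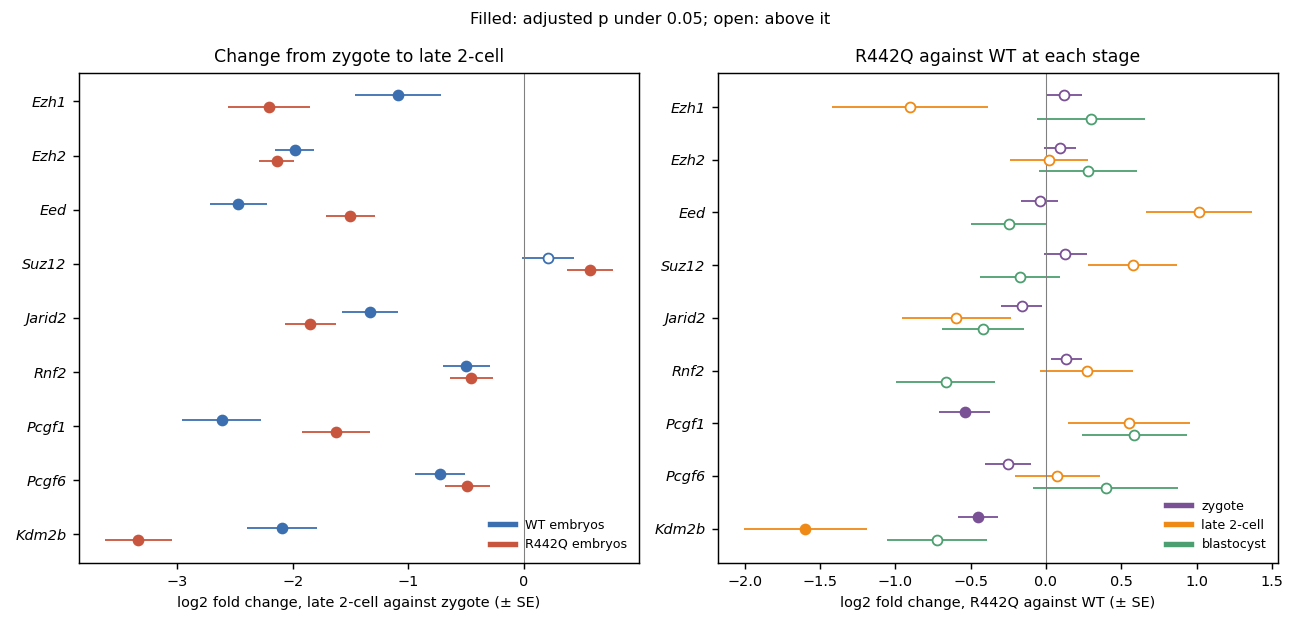
Left, log2 fold change from zygote to late 2-cell (x axis) of the 9 tested genes (y axis) in WT and R442Q embryos. Right, log2 fold change of R442Q against WT at each stage (log2(FPKM + 1) difference in blastocysts). Bars are SE and filled points have an adjusted p under 0.05. Kdm2b lies left of 0 at all 3 stages, at -0.45, -1.60 and -0.73.

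Whether the genotype effect differed between zygotes and late 2-cell embryos was tested as an interaction. It came from the joint model, in which trends on length and GC content were not removed. Of the 9 genes, 1 (Eed) was called as more positive and 1 (Kdm2b) as more negative at late 2-cell, where 10.1% of all 16199 genes were called (3.07% more positive, 7.05% more negative). The Eed effect differed by 0.97 ± 0.31 on the log2 scale (adjusted p = 0.0466) and the Kdm2b effect by -1.24 ± 0.39 (adjusted p = 0.0422, edgeR). Eed was called in 15 of 20 fits that left out 1 embryo, and neither gene was called with no filter on low counts (adjusted p = 0.107 for Eed and 0.0578 for Kdm2b). Kdm2b was called in 2 of 20 (without WT late 2-cell replicate 4 or R442Q late 2-cell replicate 1), with an adjusted p of up to 0.181. RLE scaling moved the median interaction of all genes from -0.161 to -0.006 and the share of positive calls from 30.3% to 43.5%, and gave 1.13 for Eed (adjusted p = 0.0231) and -1.09 for Kdm2b (adjusted p = 0.0791). In the fits of each stage alone the Pcgf1 estimate was -0.54 in zygotes and 0.55, not called, at late 2-cell. Its interaction in the joint model, whose estimates differ from those fits, was 0.99 ± 0.43 and did not pass the threshold (edgeR adjusted p = 0.148).

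The fall of Kdm2b was larger in counts than in FPKM. In WT embryos its FPKM went from 97.5 ± 16.4 to 49.0 ± 8.47 and in R442Q embryos from 58.2 ± 13.3 to 20.7 ± 8.14. FPKM divides a gene's count by the average effective length of its transcripts, as the authors' program RSEM weighs them, so count and FPKM together give that length in each embryo. It was computed as the count divided by FPKM and by the total count, scaled to bases, and compared with limma over genes with enough reads. This comparison was chosen after seeing the data. Over 287 genes with 1 annotated transcript, the length found this way was a median of 90.1 to 179.5 bases below the annotated length, depending on the library.

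The length for Kdm2b was 4500.1, 2903, 3385, 3498 and 4188 bases in WT zygotes, and 3331 to 4869.7 with a median of 4119 in R442Q zygotes. At late 2-cell it was 1756, 2132, 1597 and 1556 bases in WT and 1261, 855, 1451, 1230.0 and 1456 in R442Q embryos. All late 2-cell embryos were below all zygotes, and all R442Q late 2-cell embryos below all WT ones. The share of all genes whose lengths did not overlap between groups was not computed. The log2 difference between the stages was -1.06 ± 0.16 in WT (limma adjusted p = 1.96e-04) and -1.74 ± 0.15 in R442Q embryos (adjusted p = 1.30e-07), each called in 20 of 20 fits that left out 1 embryo. Lengths were called shorter for 11.2% of all 5778 tested genes in WT (27% longer, 38.2% in all) and for 27.5% in R442Q embryos (7.58% longer, 35.1% in all). The annotated coding transcripts of Kdm2b run from 888 to 5180 bases, and the one that begins at the internal start has 3532.

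Between the genotypes, the difference in Kdm2b length was not called within late 2-cell embryos (-0.51 ± 0.17, adjusted p = 0.129), where 1.55% of 7398 genes were called (1.39% shorter, 0.162% longer). It was not called in zygotes either (0.17 ± 0.14, adjusted p = 0.527), where limma called 0 of 8411 genes. The interaction was called (-0.68 ± 0.22, adjusted p = 0.0352, 12 of 20 fits), as for 25.5% of all genes (24.5% shorter, 1.04% longer). Of the coding Kdm2b transcripts, those of 3532 to 5180 bases share 19.5% to 32.8% of their 50-base stretches with other genes and the shorter ones at most 4.9%. Exons of Kdm2b overlap Rnf34 and A930024E05Rik on the other strand and Gm44574 on its own, and whether the authors' counting used strand is not given in the sources used here. Exons of Ezh2 (Gm26625), Eed (E230029C05Rik), Suz12 (Gm26563) and Rnf2 (Trmt1l) also overlap a gene on the other strand, so reads of these pairs may not be told apart. Which Kdm2b transcripts the reads came from was not measured here.

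**Figure D4:**
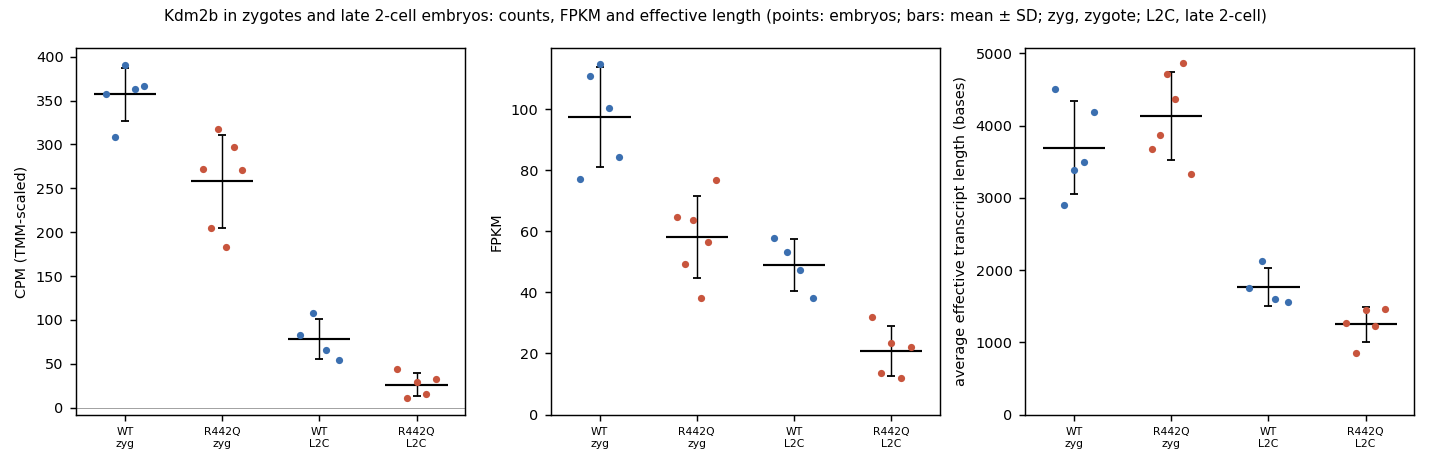
Kdm2b in each zygote and late 2-cell embryo by group (x axis): TMM-scaled CPM, FPKM and average effective transcript length in bases, with the mean and SD as black bars. WT embryos are blue and R442Q embryos red. The length is 2903 bases or more in every zygote and 2132 or less in every late 2-cell embryo.

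Among the other members, Rnf2 was shorter at late 2-cell by 0.34 ± 0.09 on the log2 scale in WT (limma adjusted p = 0.00724) and by 0.25 ± 0.08 in R442Q embryos (adjusted p = 0.0249), called in 20 and 16 of 20 fits that left out 1 embryo. Eed was shorter by 0.41 ± 0.14 in R442Q embryos (adjusted p = 0.0307, called in 15 of 20 such fits and with an adjusted p of up to 0.0861) and was not called in WT (-0.24 ± 0.15, adjusted p = 0.229). Its length ran from 795 to 1264 bases in WT and from 682 to 1115 in R442Q late 2-cell embryos, which overlapped. Pcgf6 was longer in WT by 0.04 ± 0.01 (adjusted p = 0.00198), that is 1942 ± 7.85 against 2003 ± 13.5 bases, where the median over all genes was also 0.04 and 27% were called longer. Jarid2 lengths were scattered, from 1632 to 5543 bases at late 2-cell, with no call in any comparison. Ezh1, Ezh2, Suz12 and Pcgf1 were not called in any of the 5 comparisons either.

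Other genes of the pathway were followed through 4 lists. From zygote to late 2-cell, 36.2% of all genes were called higher and 25.0% lower in WT embryos, and 35.3% and 29.8% in R442Q embryos, and the counts of the lists stand beside these shares. Of 8 other PRC2 subunits, 2 were called higher and 1 lower in WT, and 3 and 4 in R442Q embryos. Mtf2, a subunit that brings PRC2 to CG-rich DNA, rose by 2.31 ± 0.21 (adjusted p = 2.0e-09) in WT embryos, and Rbbp7, a histone-binding subunit, fell by 2.63 ± 0.23 (adjusted p = 1.9e-09, edgeR). Of 25 other PRC1 subunits and partners (24 tested), 7 were called higher and 8 lower in WT, and 9 and 10 in R442Q embryos. Nothing is read from the direction of genes in these lists that passed the filter on low counts in only 1 of the stages fitted alone, the one where they are high, such as Epop (higher) and Phf19 (lower) in R442Q embryos, which were singled out after their values were seen. Pcgf5, another partner of Rnf2, went from 1.65 to 5.31 CPM in WT zygotes to 52.3 to 208 in WT late 2-cell embryos (log2 fold change 5.51 ± 0.55, adjusted p = 9.5e-09), whereas Phc1, a subunit of canonical PRC1, fell by 2.71 ± 0.32 (adjusted p = 1.7e-07, edgeR). The median log2 fold changes of these lists in WT embryos were 0.36 and 0.12, beside 0.34 over all genes.

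Of 9 erasers of Polycomb marks and their partners, 3 were called higher and 4 lower in WT, and 1 and 6 in R442Q embryos, beside the same shares of all genes. Kdm6a, a demethylase of lysine 27, fell in both, with log2 fold changes of -1.73 ± 0.26 in WT (adjusted p = 4.0e-06) and -2.58 ± 0.24 in R442Q embryos (adjusted p = 2.3e-09, edgeR). Between genotypes at late 2-cell, Bap1, the enzyme that removes ubiquitin from histone H2A, had the smallest p of the 4 lists. It was at 67.5 to 141 CPM in WT and 13.8 to 29.2 in R442Q late 2-cell embryos, without overlap, and 5.67-fold lower (log2 -2.50 ± 0.35, adjusted p = 0.00343, edgeR). It was called in 9 of 9 fits that left out 1 embryo. In zygotes the Bap1 ranges overlapped, 60.0 to 116 in WT and 76.8 to 135 in R442Q embryos, and the interaction was -2.79 ± 0.36 (adjusted p = 5.9e-05).

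Phf1, a PRC2 subunit related to Mtf2, was also lower in R442Q late 2-cell embryos (log2 fold change -2.25 ± 0.35, adjusted p = 0.00794), L3mbtl2, a partner of Pcgf6 in PRC1.6 (-1.74 ± 0.30, adjusted p = 0.0109), and Cbx2, a reader of methylated lysine 27 in canonical PRC1 (-1.59 ± 0.33, adjusted p = 0.0174, edgeR). The Cbx2 call held in 6 of 9 fits that left out 1 embryo and those of Phf1 and L3mbtl2 in 9 of 9. Results of the other settings are not given for any gene of the 4 lists, Bap1 included. Those settings moved the late 2-cell calls over all genes from 580 to as few as 14 and as many as 2507. The 14 had a replicate block with length and GC trends removed, and the 2507 had the stages fitted together. L3mbtl2 was also lower in R442Q zygotes (-1.25 ± 0.21, adjusted p = 0.00113), as was Mtf2 (-0.59 ± 0.13, adjusted p = 0.00598). Cbx2 and Lcor were higher there, by 0.65 ± 0.17 (adjusted p = 0.0194) and 0.53 ± 0.11 (adjusted p = 0.00453, edgeR). By list, the counts in zygotes were 2 higher and 1 lower of 7 other PRC2 genes, 3 and 2 of 22 other PRC1 genes, and 0 of 9 erasers, where 6.30% of all genes were called higher and 6.92% lower. At late 2-cell none was higher, and 1 of 7, 2 of 23, 1 of 9 and 1 of 6 imprinted genes were lower, against 1.22% of all genes called higher and 2.95% lower. The others counted there were Aebp2 and Phc2 (higher in zygotes), Phc3 (lower in zygotes), and Pcgf3 (higher in zygotes) and Gab1 (lower at late 2-cell), the last pair being named after their values were seen. Leaving out 1 embryo kept these calls in 6 of 11 fits for Aebp2, 7 of 11 for Phc2, 4 of 11 for Phc3, 3 of 11 for Pcgf3 and 2 of 9 for Gab1, and that of Cbx2 in zygotes in 9 of 11. In blastocysts limma called 0 of the 40 list genes tested, with 5 at an unadjusted p under 0.05. Over all 11297 tested genes it called 1 (0.00885%), with 836 at an unadjusted p under 0.05.

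Genes imprinted through the methylation that maternal PRC2 leaves on lysine 27 formed the fourth list (Sfmbt2, Gab1, Slc38a4, Jade1, Smoc1 and Xist). None passed the filter on low counts in the fit of all 11 zygotes. Jade1 and Slc38a4 passed it in some fits that left out 1 zygote, but at 0 to 0.661 and 0 to 1.12 CPM in WT zygotes they did so through the R442Q zygotes, and nothing is read from those fits. The 6 genes entered the comparison of the stages only through their late 2-cell counts, so a rise was the only change that could be called. The edgeR fit called Gab1, Jade1 and Smoc1 higher in both genotypes, where 36.2% of all genes were called higher in WT and 35.3% in R442Q embryos, and nothing is read from this count (these names were chosen after their values were seen). Jade1 was at 0 to 0.661 CPM in WT zygotes and 18.3 to 36.1 in WT late 2-cell embryos, and at 0.957 to 3.94 and 2.44 to 30.2 in R442Q embryos.

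Across the 20 zygotes and late 2-cell embryos, the gene most like each member was found by Pearson's r of log2 CPM over all tested genes. The points share stage and library scaling, so these values describe co-variation over 2 stages and carry no test. Kdm2b was most like Nudc (r = 0.976), Eed most like Adss (0.969), Ezh2 most like Gm36241 (0.990), Jarid2 most like Clcc1 (0.970), Pcgf1 most like Nup93 (0.962) and Ezh1 most like Fam161a (0.962). Rnf2 (Pole4, 0.923), Pcgf6 (Git2, 0.846) and Suz12 (Gm28048, 0.841) had weaker neighbours. Of these, Gm28048 was near 0 in both stages, at a mean of 0.08 FPKM in WT zygotes and 0.29 in WT late 2-cell embryos, and Gm36241 went from 83.5 to 0.16 FPKM. Suz12 had negative r with all 8 other members, from -0.635 with Kdm2b to -0.103 with Rnf2.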

How the data were processed

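RNA of single mouse embryos was sequenced by SMART-seq2 and Nextera, per the labels' protocols. RSEM and the mm10 build are named in the submitters' processing notes; the RSEM version, the annotation and the use of strand are not given in the sources used here. For zygotes and late 2-cell embryos the authors deposited RSEM estimated counts and FPKM per gene symbol, and for blastocysts FPKM alone was used. Of the estimated counts, zeros included, 90.7% (zygotes) and 89.9% (late 2-cell) were whole numbers within 1e-09, and of those above 0, 75.4% and 71.7%; all were rounded to whole numbers before testing. Total counts, 5727956 to 11296522 per embryo, put a floor of 3 counts at 0.266 to 0.524 CPM.

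Samples were grouped by stage and genotype from the labels, and blastocyst columns were matched by genotype and number. Genotypes were compared within a stage with edgeR 4.0.16 (R 4.3.3; quasi-likelihood test, TMM scaling, filterByExpr with a minimum count of 10) or, for blastocysts, limma 3.58.1 (trend option) on log2(FPKM + 1) over genes with at least 1 FPKM in at least 7 of 14 embryos. Stages and the interaction were fitted in 1 edgeR model of the 4 early groups. The SE given with edgeR values was derived from the test, as the absolute log2 fold change divided by the square root of F. P-values were adjusted over all tested genes by the method of Benjamini and Hochberg. CPM was computed from the counts with TMM scaling over the 20 early embryos, and TPM by rescaling FPKM. Effective lengths were compared with limma on log2 values over genes with at least 20 counts and 0.5 FPKM in every embryo. Tests were tried on simulated counts with 200 changed genes. Gene positions, transcripts and shared 50-base stretches come from GENCODE M21 (GRCm38), and promoter windows from RefSeq (GRCm38.p6).

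The 10 genes are named in every comparison. Of the 4 other lists, at most 4 called rises and 4 called falls in a comparison, those with the smallest p-values, were eligible to be named. Names marked in the text as chosen after their values were seen did not follow that rule. Members and lists were chosen with earlier results of these data known. The alternatives were DESeq2 1.42.0, RLE scaling, no filter on low values, limma on FPKM or voom, a replicate block, removal of trends on length and GC content (mgcv 1.9.3), a joint fit of the stages, another pseudocount (0.1) or TMM scaling for blastocysts, and leaving out each embryo. Trends on length and GC content were removed only in the genotype fits of zygotes and of late 2-cell embryos. The stage and interaction fits had no such removal. Replicate numbers are not stated to mark a shared batch, so the main tests had no block.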

Additional observations from a re-analysis of the deposited data

Results flagged for a closer look

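The genotype effect on Eed differed between late 2-cell embryos and zygotes by 0.971 on the log2 scale, and that on Kdm2b by -1.2442, each called in the interaction test (edgeR adjusted p = 0.0466 and 0.0422). The effect on log2 effective transcript length differed by -0.6751 for Kdm2b and by -0.0462 for Pcgf6 (limma adjusted p = 0.0352 and 0.0200), where the median of all genes was -0.0613 and 24.5% of genes were called shorter. Single embryos stood far from the rest of their group in 4 of 59 groups examined, where chance flags about 1 in 20, or 2.95. These were Ring1 at 0.3818 CPM in WT zygote replicate 1, at 0 in WT late 2-cell replicate 4 and at 0.6637 CPM in R442Q late 2-cell replicate 2, all at or near the floor of 3 counts, and Pcgf6 at 243.3 CPM in R442Q late 2-cell replicate 1.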

How the results depend on the processing

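Of 1881 values of the 9 tested genes under alternatives, 1722 kept their direction and side of the threshold, 106 lost and 13 gained the call, and 40 changed direction; the cause was not tested. Reversals among settings other than leaving out an embryo concerned values that were not called: in zygotes Ezh1 (-0.0306) and Ezh2 (-0.0730) with limma on FPKM; at late 2-cell Ezh2 with no filter (-0.0462), a replicate block (-0.0431), length and GC trends removed (-0.38), both together (-0.45) and stages fitted together (-0.0338), Suz12 (-0.15, with the block -0.17) and Rnf2 (-0.10, with the block -0.20) with those trends removed; in the interaction Ezh2 with DESeq2 (0.00111) and Rnf2 with voom (-0.0255) and the block (-0.0102). Leaving out 1 embryo moved across 0 the values of Eed in zygotes (-0.112 to 0.0137), Ezh2 (-0.0334 to 0.0608) and Pcgf6 (-0.0906 to 0.145) at late 2-cell, Pcgf6 in blastocysts (-0.0131 to 0.583), Suz12 over the stages in WT (-0.00486 to 0.35) and Ezh2 in the interaction (-0.197 to 0.0154). For effective length the same held for Suz12 in zygotes (-0.0143 to 7.46e-04), Ezh1 (-0.112 to 0.0333), Suz12 (-0.0357 to 0.00133) and Pcgf1 (-0.0361 to 0.0182) at late 2-cell, Ezh2 over the stages in WT (-0.0716 to 0.0368), Pcgf6 in R442Q (-0.00504 to 0.00369), and Ezh1 (-0.141 to 0.00402), Suz12 (-0.0252 to 0.0118) and Pcgf1 (-0.0488 to 0.00548) in the interaction.

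In zygotes RLE scaling called 1 of the 9 (Pcgf1 adjusted p = 0.0534) and fitting the stages together 0 of the 9 and 270 genes. At late 2-cell 1664 genes and 2 of the 9 were called with DESeq2, 889 genes with no filter, 285 genes and 0 of the 9 with length and GC trends removed, and 2507 genes and 2 of the 9 with stages fitted together; limma on FPKM called 0 of the 9. In blastocysts 0 genes were called with no filter and 3 with TMM scaling. In the interaction 1 of the 9 was called with DESeq2 or RLE scaling and 0 with no filter. The share of calls that were higher moved from 47.7% to 25.0% (limma on FPKM) and 73.0% (stages together) in zygotes, from 29.3% to 44.2% (DESeq2), 40.5% (limma on FPKM) and 39.3% (trends removed) at late 2-cell, and from 30.3% to 46.4% (DESeq2) and 43.5% (RLE) in the interaction.

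Leaving out 1 embryo gave 1125 to 1718 genes and 0 to 2 of the 9 in zygotes, 142 to 891 and 0 to 1 at late 2-cell, 0 to 30 and 0 in blastocysts, 9306 to 10279 and 7 to 8 over the stages in WT, 10095 to 10834 and 7 to 9 in R442Q, and 1089 to 2311 and 0 to 2 in the interaction. For effective length it gave 0 to 4 genes in zygotes, 39 to 101 at late 2-cell, 1976 to 2460 and 1820.0 to 2089 over the stages in WT and R442Q, and 998 to 1682 in the interaction.

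Same-numbered embryos did not deviate together (r of -0.057 to 0.061 in zygotes, -0.143 to 0.206 at late 2-cell and -0.168 to 0.204 in blastocysts), so the numbers are not taken to pair embryos; 1 of 5, 1 of 4 and 2 of 7 correlated best with their own number. These numbers come from the sample titles; the numbers in the count tables' column names differ for some embryos, and by those r was -0.075 to 0.041 in zygotes and -0.143 to -0.057 at late 2-cell, and no block by them was fitted. With the replicate block 58 genes and 0 of the 9 were called at late 2-cell (14 and 0 with length and GC trends removed too), 0 genes in blastocysts, and 1085 genes and 0 of the 9 in the interaction (adjusted p = 0.0681 for Eed and 0.0506 for Kdm2b). In zygotes the block gave 1217 genes and 2 of the 9, and over the stages 9342 genes and 7 of the 9 in WT and 9855 genes and 8 of the 9 in R442Q embryos. With the block the share of higher calls at late 2-cell was 13.8%, and 57.1% with the trends removed too.

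In TPM in place of FPKM, 25 of 60 group means moved by more than 1 SD. Ring1 was at or near the floor of 3 counts, and no counts were used for blastocysts, so their counting error is unknown.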
